A study of Mus musculus with 4 samples.

Results

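Cluster 2 of the deposited CD4 object is a set of 280 bone marrow T cells, many of which carry transcripts of cell division. Its members were taken by the cluster number in the deposited per-cell table, and they make up 280 of the 1210 CD4 cells and of the 3587 cells in all. Of these, 42 came from mice given a transplant alone (alloBMT) and 238 from mice given the transplant and cyclophosphamide (PT-Cy). All recipients were C57BL/6 mice, and C3H.SW donors supplied 5000000 bone marrow cells, 500000 CD4 T cells and 500000 CD8 T cells. The PT-Cy mice also received 50 mg/kg cyclophosphamide, an alkylating drug toxic to dividing cells, on days 3 and 4. On day 14 the marrow of 4 mice was pooled in each group and its T cells were sorted. Each cell gave both its RNA and its open chromatin (ATAC). Each group is 1 library per assay, so differences between groups have no replicate check, no test was made, and mice, library and treatment cannot be told apart. Printed intervals are exact, at 95%, and hold counting error but no spread between mice.

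A T cell that divides passes through S phase, when replication origins fire and DNA is copied, and then through mitosis, when condensed chromosomes are drawn apart on the spindle. Genes of S phase are known targets of E2F transcription factors. Genes of mitosis are switched on later, often through promoters that hold a CCAAT box and a short element called CHR. Dividing T cells can differ in state: cells under lasting antigen stimulation express the regulator Tox and inhibitory receptors, while memory and stem-like cells express the cytokine receptor gene Il7r and the transcription factor genes Tcf7 and Satb1.

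To show where such letters do and do not occur, promoter sequences are given for the 3 genes given as markers of the cluster, Neil3, E2f7 and Ncapg2, and for 3 mitotic genes, Kif15, Top2a and Cdk1. Each sequence is the 250 bases before the RefSeq gene start on the gene's own strand, in build GRCm38.p6. Capitals mark E2F motifs (TTTCCCGC or TTTGGCGC), CHR elements (TTTGAA) and CCAAT boxes (CCAAT), read on either strand. Motifs may touch or overlap, as the E2F and CHR letters of Kif15 do.
Neil3, chr8:53639066-53639315, minus strand: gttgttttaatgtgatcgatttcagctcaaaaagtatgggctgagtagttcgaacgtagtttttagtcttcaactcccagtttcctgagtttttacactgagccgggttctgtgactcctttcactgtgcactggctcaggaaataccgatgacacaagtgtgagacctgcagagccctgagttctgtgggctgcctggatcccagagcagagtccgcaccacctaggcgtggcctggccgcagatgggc
E2f7, chr10:110745189-110745438, plus strand: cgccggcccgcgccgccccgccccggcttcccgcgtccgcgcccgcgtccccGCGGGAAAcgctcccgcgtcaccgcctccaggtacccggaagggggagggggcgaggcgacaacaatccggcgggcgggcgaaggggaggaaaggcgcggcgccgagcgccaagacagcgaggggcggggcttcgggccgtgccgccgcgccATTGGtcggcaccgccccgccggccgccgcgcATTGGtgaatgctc
Ncapg2, chr12:116405186-116405435, plus strand: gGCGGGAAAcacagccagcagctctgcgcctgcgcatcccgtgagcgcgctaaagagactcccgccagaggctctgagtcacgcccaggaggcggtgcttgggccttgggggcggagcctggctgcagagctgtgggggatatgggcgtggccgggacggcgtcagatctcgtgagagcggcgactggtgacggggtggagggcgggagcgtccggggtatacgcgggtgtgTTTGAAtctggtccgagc
Kif15, chr9:122950831-122951080, plus strand: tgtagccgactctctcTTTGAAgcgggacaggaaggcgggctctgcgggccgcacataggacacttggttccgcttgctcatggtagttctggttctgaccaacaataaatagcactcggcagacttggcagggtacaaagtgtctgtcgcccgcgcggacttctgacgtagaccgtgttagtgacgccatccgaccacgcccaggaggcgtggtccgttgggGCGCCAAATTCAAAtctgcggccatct
Top2a, chr11:99024190-99024439, minus strand: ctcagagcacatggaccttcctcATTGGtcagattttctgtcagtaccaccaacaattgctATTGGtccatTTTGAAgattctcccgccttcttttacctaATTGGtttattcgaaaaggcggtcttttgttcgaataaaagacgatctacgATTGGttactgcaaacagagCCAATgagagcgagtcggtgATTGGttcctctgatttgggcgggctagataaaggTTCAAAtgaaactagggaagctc
Cdk1, chr10:69352913-69353162, minus strand: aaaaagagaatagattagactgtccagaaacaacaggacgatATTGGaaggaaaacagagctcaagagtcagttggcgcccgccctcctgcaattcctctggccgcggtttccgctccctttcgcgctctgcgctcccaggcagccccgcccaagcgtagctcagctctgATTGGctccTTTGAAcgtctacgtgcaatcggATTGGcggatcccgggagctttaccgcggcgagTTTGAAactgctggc

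E2f7 holds an E2F motif that starts 198 bases before the gene start and CCAAT boxes at 46 and 14 bases. Ncapg2 holds an E2F motif 249 bases and a CHR element 18 bases before its start. Kif15 has both letters side by side, the E2F motif at 27 and the CHR element at 19 bases, and Cdk1 and Top2a have a CHR element at 15 and 23 bases behind CCAAT boxes. The window of Neil3 holds none of the 3 motifs. Over all 32851 RefSeq promoters, taken as 250 bases before to 50 after the start, 1.56% held an E2F motif, 17.9% a CHR element and 37.4% a CCAAT box. The E2F motif was in 38.1% of the 21 promoters of origin licensing genes and in 18.4% of the 38 promoters of DNA synthesis genes. It was in 6.12% of the 49 promoters of mitotic kinase and spindle genes. The CHR element was in 67.3% of the mitotic promoters and in 28.6% of the origin promoters. The CCAAT box did not set these 2 lists apart, with 69.4% of the mitotic and 71.4% of the origin promoters. It was in 44.7% of the DNA synthesis promoters. With only the bases before the start, the E2F motif was in 23.8% of the origin, 5.26% of the DNA synthesis and 6.12% of the mitotic promoters. The CHR element was then in 40.8% of the mitotic promoters and in 15.99% of all promoters. The lists differ in which letters they hold, as the plot of motif shares shows, and a match in a window is a description of sequence only.

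**Figure D1:**
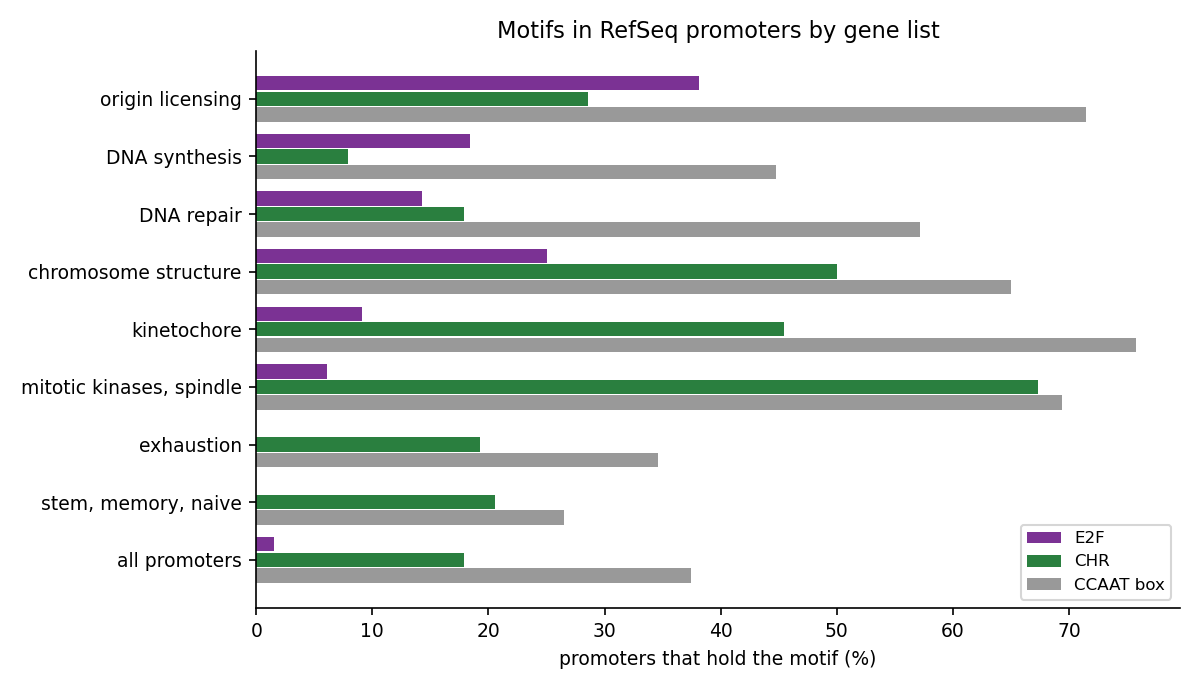
Share of RefSeq promoters (x axis, percent) that hold an E2F motif, a CHR element or a CCAAT box, by gene list, with all 32851 promoters at the bottom. E2F bars are longest for origin licensing at 38.1% and CHR bars for mitotic kinases and spindle at 67.3%.

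The marker genes were higher in cluster 2 than in the other CD4 cells of both libraries. Neil3, a DNA glycosylase gene, had 40 UMIs in the 42 alloBMT cells of the cluster (213.8 CPM, the level scaled by the UMI total of the set) and 20 UMIs in the 884 other alloBMT cells (7.04 CPM). In PT-Cy it had 125.2 CPM in the cluster and 23.0 CPM from 5 UMIs in the other 46 cells. E2f7, a repressor of E2F targets, had 128.3 and 46.8 CPM in the cluster against 15.8 and 9.20 CPM outside it, in alloBMT and PT-Cy. Ncapg2, a condensin subunit gene, had 229.8 and 131.8 CPM against 31.0 and 36.8 CPM. Because the deposited clusters rest on a joint graph of RNA and ATAC, a cluster against the rest describes the cells and tests nothing.

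All 280 cells had at least 1 UMI of Cd4 and none of Cd8a, as did all 1210 CD4 cells, so neither gene tests the label. Cd8b1, the other CD8 chain gene, had 16 UMIs in 9 of the alloBMT cells and 152 UMIs in 83 of the PT-Cy cells. The 8 B cell markers had 2 UMIs in alloBMT cluster 2 (10.7 CPM), both of Ighm, and 75 UMIs in 58 of the 238 PT-Cy cells (71.7 CPM). Cd79a and Ms4a1 were at 0 in both, and Cd79b had 0 and 7 UMIs. The summed level of 10 red cell genes was 155 CPM in alloBMT and 953 CPM in PT-Cy cluster 2, and that of 10 neutrophil genes was 21.4 and 266.5 CPM. For 10 monocyte and macrophage genes it was 10.7 and 89.8 CPM. The 7 NK cell genes had 2 UMIs in alloBMT (10.7 CPM) and 68 UMIs in 37 PT-Cy cells (65.0 CPM). For single genes that T cells lack, Hbb-bs had 85.5 and 509.2 CPM and S100a9 5.35 and 66.9 CPM. RNA of other cells was thus counted at a higher level in the PT-Cy library, and its part in the differences between libraries was not tested. The cluster's share of CD4 cells, which the clustering itself sets, was 4.54% in alloBMT (3.29 to 6.08) and 83.8% in PT-Cy (79.0 to 87.9). The median cell had 4019 UMIs in alloBMT and 3875.5 in PT-Cy, with 9528 and 4122 ATAC counts. Between the libraries 2 barcodes of all cells were shared, 1 of them carried by a cell of cluster 2, and 0 were shared by CD4 cells of both libraries.

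The plot of the deposited map shows that the 42 alloBMT cells of cluster 2 do not lie together. On its first coordinate 23 of them lie between -3.97 and -2.62 and the other 19 between 0.23 and 2.32, with none in between. Of the PT-Cy cells, 237 lie on the positive side and 1 on the negative side.

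**Figure D2:**
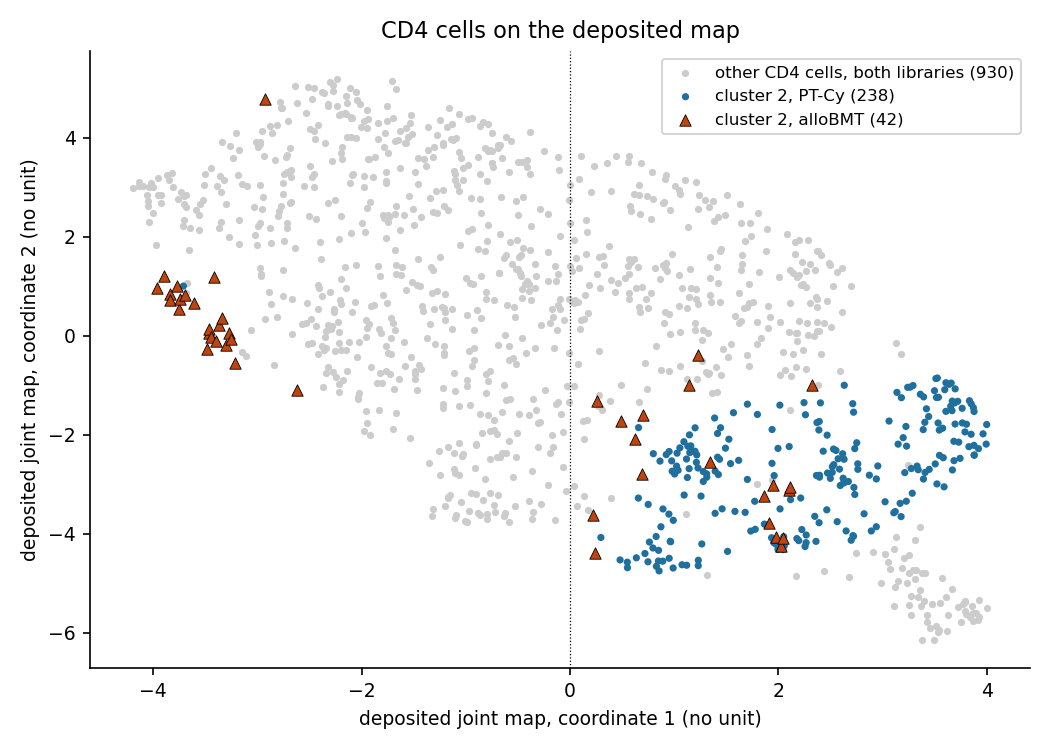
CD4 cells on the deposited joint RNA and ATAC map (both axes without unit): other CD4 cells in grey, cluster 2 cells of PT-Cy in blue circles and of alloBMT in red triangles, with a dotted line at 0 on coordinate 1. Of the alloBMT cells 23 lie left of the line and 19 lie among or near the PT-Cy cells on the right.

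Division transcripts followed the same split. The measure is the percent of a cell's UMIs that come from 111 genes of the kinetochore, mitotic kinase, spindle and chromosome structure lists, called the mitosis share here. Over all cells of the cluster its median was 1.64% in alloBMT and 1.05% in PT-Cy, against 0.461% and 0.627% in other CD4 cells. In the other alloBMT CD4 cells the chromosome structure list had 3309 CPM, the mitotic kinase and spindle list 1201 CPM and the kinetochore list 806 CPM. All 884 of these cells had a UMI of the chromosome structure list, so a low share alone does not mark mitosis. In alloBMT 24 cells had a share from 1.14% to 3.75% and 18 cells from 0.0342% to 0.627%, with no cell between these ranges. All 23 cells on the negative side of the map were among the 24, and all 18 low cells lay on the positive side. The PT-Cy cells ran without such a gap from 0.173% to 4.81%, with 52 cells inside the interval that is empty in alloBMT.

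**Figure D3:**
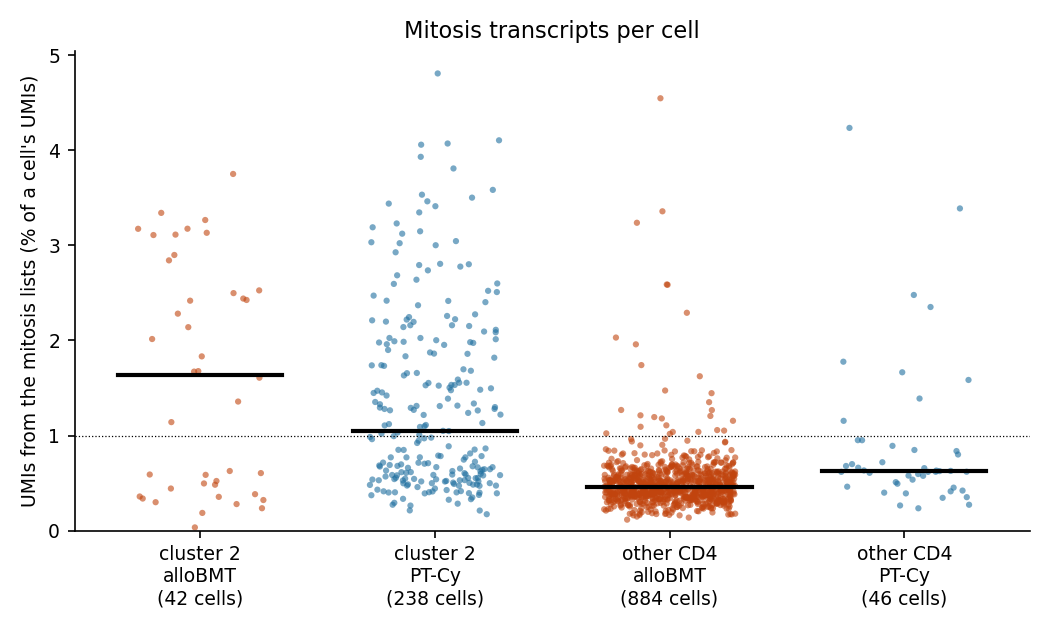
Mitosis share (y axis, percent of a cell's UMIs) of each CD4 cell by cluster and library, with the median as a bar and the 1% line dotted. The 42 alloBMT cells of cluster 2 separate into 24 above and 18 below the line, while the 238 PT-Cy cells spread across it.

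A line at 1% was therefore used to divide the cluster, a choice made after these values were seen. It put 24 alloBMT and 123 PT-Cy cells at or over the line and 18 and 115 under it, and 14 PT-Cy cells lay within 0.1 percentage points of it. The cells over the line had a median mitosis share of 2.47% in alloBMT and 1.97% in PT-Cy. The low cells had 0.372% and 0.555%, and the other alloBMT CD4 cells 0.461%. By this measure the name dividing describes 57.1% of the cluster's alloBMT cells (41.0 to 72.3) and 51.7% of its PT-Cy cells (45.1 to 58.2). Outside the cluster, 28 of 884 alloBMT cells and 9 of 46 PT-Cy cells were over the line, so more such alloBMT cells lay outside cluster 2 than inside it.

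S phase transcripts, from 61 genes of origin licensing and DNA synthesis, were also higher over the line. Their median share was 0.712% in alloBMT and 0.456% in PT-Cy cells over the line, and 0.231% and 0.241% under it. Across the cells of the cluster the S phase and mitosis shares had a Spearman rho of 0.74 in the 42 alloBMT cells and 0.45 in the 238 PT-Cy cells, which share libraries and depth. The cells over the line were also deeper in alloBMT, with a median of 5356 UMIs against 2671 under it, and in PT-Cy with 4500 against 3315. With each cell thinned to 1981 UMIs the medians of the mitosis share over the line were 2.62% and 2.07%, and under it 0.353% and 0.555%. Since the classes were cut on this share, the thinned values describe them and are no check of the split.

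In alloBMT the cluster was set against the other 884 CD4 cells, and the genes with the highest lower bounds were Neil3 and Parpbp of the repair list and Cenpp of the kinetochore list. Of the 4014 genes with a mean of at least 50 CPM over the compared sums, 209 (5.21%) reached 2-fold higher and 74 (1.84%) reached 2-fold lower. Of the mitotic kinase and spindle list, 25 of 27 measured genes were 2-fold higher and 0 lower, with a median log2 ratio of 3.04. The median of all genes was within 0.01 of 0. The list holds 55 genes, and the minimum is a mean over both sums. Members low outside can therefore pass through their level in the cluster, which raises the count and the median. Over all 55 genes the summed level was 1201 CPM outside and 7446 CPM inside. Kif15, a spindle motor gene, had 31.0 CPM outside and 443.7 CPM inside (log2 ratio 3.84, 3.39 to 4.29). Cit, a kinase gene of cytokinesis, had 30.3 and 374.2 CPM (3.63). Of the kinetochore list, 14 of 17 were higher with a median of 3.07, led by Cenpp, a centromere protein gene, at 20.1 and 384.9 CPM (4.26, 3.74 to 4.79).

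The S phase, repair and chromosome structure lists had smaller medians over their measured genes. The minimum acts differently on lists of different level, so these medians are not fully comparable. Over all 22 genes of the chromosome structure list the summed level was 3309 CPM outside and 7579 CPM inside. Of the DNA synthesis list 12 of 19 were 2-fold higher (median 1.25), of origin licensing 2 of 8 (median 0.65), of chromosome structure 10 of 18 (median 1.17) and of DNA repair 9 of 16 (median 1.53). None of these 4 lists had a gene 2-fold lower. Rad51b, a recombination repair gene, had 52.4 CPM outside and 555.9 CPM inside the cluster (3.41, 3.03 to 3.78), and Parpbp, which encodes a regulator of recombination, had 3.87 and 122.9 CPM. Among genes lower in the cluster were the histone demethylase gene Kdm5b, with 3 UMIs inside (log2 ratio -2.40, -4.69 to -0.84), the inhibitory receptor gene Lag3 at 272.1 and 106.9 CPM, and the chemokine gene Ccl5 at 5374.0 and 3255.2 CPM.

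In PT-Cy the same contrast had smaller ratios at division genes. The other 46 cells carried division transcripts too, and 115 of the 238 cluster cells were under the 1% line. The part of either in the smaller ratios was not tested. The other cells were 31 cells of cluster 4, 11 of cluster 3 and 4 of cluster 0. The summed level of 17 regulatory T cell genes was 9144 CPM in PT-Cy cluster 4, 3954 CPM in cluster 3 and 1295 CPM in cluster 0. Mki67, a marker of cycling cells, had 820.7 CPM in PT-Cy cluster 2, 555.5 CPM in PT-Cy cluster 4 and 616.2 CPM in PT-Cy cluster 3. In alloBMT it had 865.9 CPM in cluster 2 and 135.5 to 149.0 CPM in the other 4 clusters. Of 4125 genes, 95 (2.3%) were 2-fold higher in PT-Cy cluster 2 and 98 (2.38%) 2-fold lower. Of the mitotic kinase and spindle list 10 of 38 measured genes were higher and 0 lower, with a median of 0.73. Of the kinetochore list 2 of 13 were higher (median 0.79). Over all 55 genes of the mitotic kinase and spindle list the summed level was 3611 CPM outside and 5739 CPM inside.

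The genes with the highest lower bounds in PT-Cy were not all of division. Aff3, a gene of a nuclear transcription elongation factor, had 87.4 CPM outside and 395.5 CPM inside (log2 ratio 2.18, 1.52 to 2.92). Satb1, a chromatin organiser of T cells, had 188.6 and 457.6 CPM (1.28, 0.82 to 1.78), and the survival gene Bcl2 had 363.4 and 689.8 CPM (0.92). Division genes among the leaders were Neil3, Ncapg2, Kif15, Racgap1 of cytokinesis and Clspn of the replication checkpoint. Genes of regulatory T cells led the other direction, with 8 of 12 measured members 2-fold lower, 0 higher and a median of -1.14. Members low inside can pass the minimum through their level outside, where 31 of the 46 cells are of cluster 4. The count and the median are partly set by this. Over all 17 genes of the list the summed level was 7080 CPM outside and 2466 CPM inside. Foxp3, the lineage factor, had 142.6 CPM outside and 12.4 CPM inside (-3.52, -4.58 to -2.55), and Ikzf2 had 3933.2 and 1071.9 CPM (-1.88). With cluster 4 taken out, only 15 PT-Cy cells remained outside, and the counts were 235 genes higher and 221 lower.

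Of the genes that passed the minimum in both contrasts, 169 were 2-fold higher in the cluster in alloBMT and 83 in PT-Cy, and 29 were higher in both. These are 17.2% of the alloBMT genes and 34.9% of the PT-Cy genes. In the lower direction the numbers were 61 and 47, with 3 in both, or 4.92% and 6.38%. The minimum in both contrasts was passed by 3644 genes. The plot of list medians shows the kinetochore and the mitotic kinase and spindle lists near 3 in alloBMT and under 1 in PT-Cy. The members that passed the minimum differ between these contrasts.

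**Figure D4:**
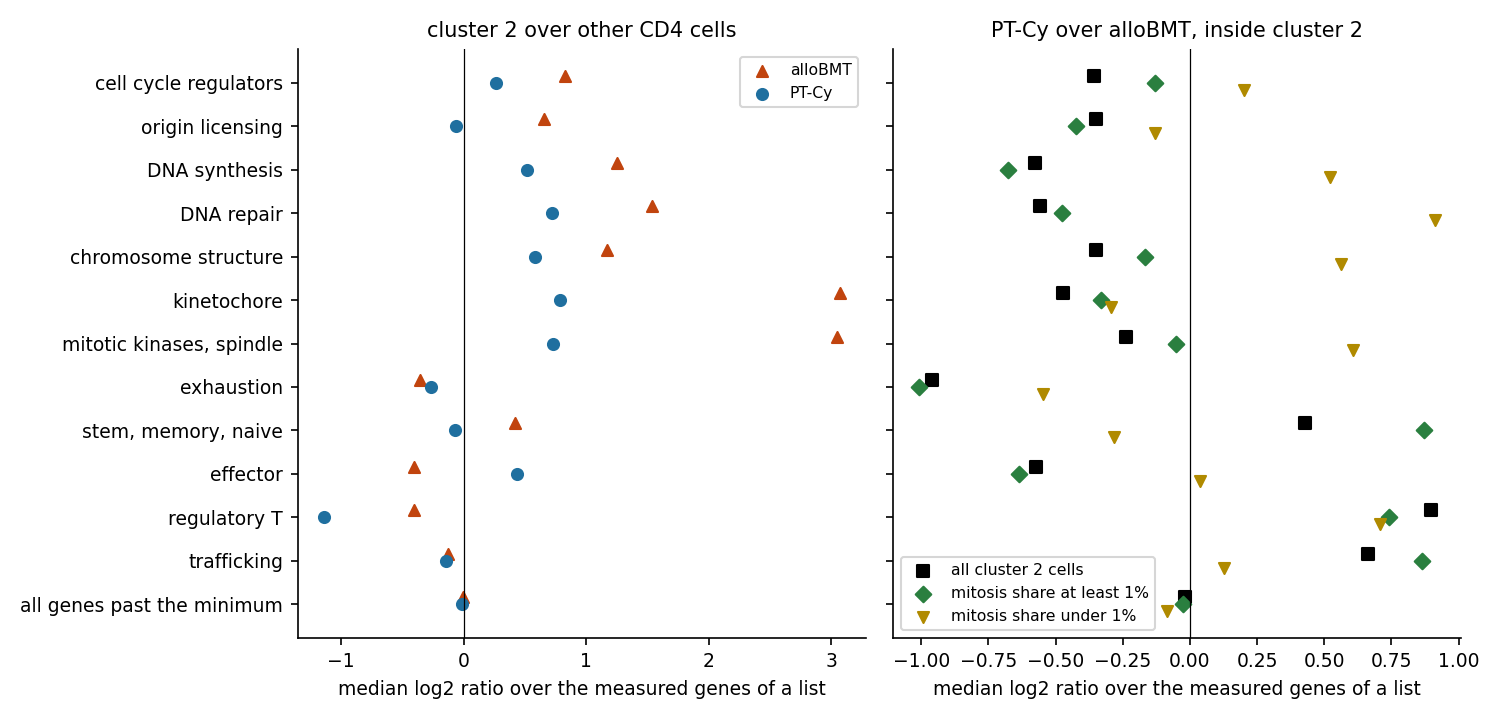
Median log2 ratio (x axis) of the measured genes of each list, for cluster 2 over other CD4 cells in each library (left) and for PT-Cy over alloBMT inside cluster 2 (right), with all cluster 2 cells, those with a mitosis share of at least 1% and those under 1% shown apart. On the right the stem, memory and naive list sits at 0.43 for all cells, 0.87 over the line and -0.28 under it.

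PT-Cy against alloBMT inside the cluster had lower exhaustion genes and higher Il7r and Aff3 when all 280 cells were used. Of 4091 genes, 155 (3.79%) reached 2-fold higher in PT-Cy and 136 (3.32%) lower. Tox, which encodes a regulator of T cell exhaustion, had 871 UMIs in alloBMT (4655.7 CPM) and 1942 in PT-Cy (1855.3 CPM), a log2 ratio of -1.33 (-1.44 to -1.21). Of the exhaustion list 8 of 19 measured genes were 2-fold lower, 0 higher, with a median of -0.96 beside -0.02 for all genes. Il7r, the interleukin-7 receptor gene, had 21 UMIs (112.2 CPM) and 297 UMIs (283.7 CPM), a log2 ratio of 1.34 (0.70 to 2.05). Mki67 had 865.9 and 820.7 CPM (-0.08, -0.32 to 0.17). These values mix the low and high cells of each library, so each class was then compared with its counterpart.

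Among cells over the line, several memory genes counted in PT-Cy were at 0 or low in alloBMT. Of the 25 genes of the stem, memory and naive list 17 had a UMI in the alloBMT cells, with a summed level of 2447 CPM, and 25 had one in the PT-Cy cells, with 4120 CPM. The PT-Cy set was deeper, with 599729 UMIs, and the number of genes with a UMI rises with depth. Il7r had 0 UMIs in the 24 alloBMT cells, among 136074 UMIs, which allows up to 22.0 CPM, and 139 UMIs in 52 of the 123 PT-Cy cells (231.8 CPM), at least 10.5-fold higher with the floor of 3 UMIs per set. Tcf7, a transcription factor of stem-like T cells, had 0 and 45 UMIs, at least 3.40-fold higher in PT-Cy. Aff3 had 0 and 175 UMIs, at least 13.2-fold higher, and Nrp1, a semaphorin coreceptor gene, 0 and 59 UMIs, at least 4.46-fold. Satb1 was counted in both, with 8 UMIs (58.8 CPM) and 182 UMIs (303.5 CPM), a log2 ratio of 2.37 (1.36 to 3.60). All Il7r, Tcf7, Aff3 and Nrp1 UMIs of alloBMT cluster 2 were thus in the cells under the line, while PT-Cy had them in both classes. Tcf7 and Nrp1 were under the minimum of 50 CPM.

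Genes of the exhaustion list were lower in PT-Cy among cells over the line. Tox had 5680.7 CPM in alloBMT and 2211.0 CPM in PT-Cy (log2 ratio -1.36, -1.49 to -1.23), where the other 884 alloBMT CD4 cells had 5928.4 CPM. Nr4a2, a nuclear receptor gene induced by antigen signals, had 617.3 and 155.1 CPM (-1.99, -2.43 to -1.55). Zeb2, a transcription factor of effector cells, had 41 UMIs in 8 of 24 alloBMT cells and 27 UMIs in 19 of 123 PT-Cy cells (-2.74, -3.50 to -2.01). Of the exhaustion list 9 of 17 measured genes were 2-fold lower and 0 higher, with a median of -1.01. Here 246 of 4086 genes (6.02%) were 2-fold higher in PT-Cy and 196 (4.8%) lower. Of the stem, memory and naive list 4 of 11 were higher and 0 lower, with a median of 0.87 in which Il7r stands at its bound.

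Division genes over the line are given for both libraries. Mki67 had 1146.4 CPM in alloBMT and 1223.9 CPM in PT-Cy (log2 ratio 0.09, -0.16 to 0.35). The mitotic kinase and spindle list had 4 of 45 genes 2-fold higher, 0 lower and a median of -0.05. Both sets were cut on a share that holds this list, so the cut largely sets this median. The cluster's marker E2f7 had 24 UMIs (176.4 CPM) and 45 UMIs (75.03 CPM), a log2 ratio of -1.23 (-1.98 to -0.45). Of measured DNA synthesis genes 6 of 28 were 2-fold lower and 0 higher (median -0.68), of origin licensing genes 1 of 11 and 0 (median -0.42), and of repair genes 6 of 23 and 0 (median -0.47), beside 4.8% lower and 6.02% higher of all genes. Rad51b had 742.2 CPM from 22 of 24 alloBMT cells and 250.1 CPM in PT-Cy (-1.57, -1.94 to -1.19). Neil3 had 294.0 and 213.4 CPM (-0.46, -0.98 to 0.09), an interval that includes 0.

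Under the line Il7r and Tcf7 had intervals that included 0. Il7r had 411.7 CPM in the 18 alloBMT cells, from 7 of them, and 353.5 CPM in the 115 PT-Cy cells (log2 ratio -0.22, -0.88 to 0.51). Tcf7 had 156.8 and 147.7 CPM (-0.09, -1.15 to 1.18), and Lef1, its paralogue, 411.7 and 335.6 CPM (-0.29, -0.96 to 0.44). Satb1 had 1156.6 and 664.4 CPM (-0.80, -1.21 to -0.37), the opposite direction to the cells over the line, and Aff3 156.8 and 534.7 CPM (1.77, 0.77 to 3.00). Of 4042 genes 344 (8.51%) were 2-fold higher in PT-Cy and 418 (10.3%) lower, and of the stem, memory and naive list 1 of 15 was higher and 0 lower. Tox had 1921.2 and 1378.1 CPM (-0.48, -0.79 to -0.16), against 5928.4 CPM in the other alloBMT CD4 cells. Over all 24 genes of the exhaustion list the summed level under the line was 4646 CPM in alloBMT and 4221 CPM in PT-Cy. Over the line the same sum was 10406 and 5356 CPM, so the list differed less between the libraries in the low cells.

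The classes were then compared within each library. In alloBMT Tox had 1921.2 CPM in the low and 5680.7 CPM in the high cells (log2 ratio 1.56, 1.26 to 1.88), and Satb1 1156.6 and 58.8 CPM (-4.30, -5.58 to -3.23). Of the stem, memory and naive list 11 of 13 measured genes were 2-fold lower in the high cells and 0 higher, beside 17.4% of all 4115 genes lower and 15.7% higher. Il7r and Tcf7, at 0 in the high alloBMT cells, pass the minimum only through the low cells. The count is thus partly set by the minimum. Over all 25 genes of the list the summed level was 7685 CPM in the low and 2447 CPM in the high cells. In PT-Cy the list had 4 of 16 lower and 0 higher, beside 1.63% of 4112 genes lower and 3.89% higher, with Il7r at 353.5 and 231.8 CPM (-0.61, -0.95 to -0.27) and Satb1 at 664.4 and 303.5 CPM (-1.13, -1.40 to -0.86). The list's median was -2.00 in alloBMT and -0.69 in PT-Cy.

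Lsamp, a gene of a cell adhesion molecule, was unevenly spread in alloBMT, with 63 of its 67 UMIs in 6 of the 18 low cells. Zbtb16, a transcription factor of innate-like T cells, had 10 UMIs in 4 of the low and 0 in the high alloBMT cells, and 54 UMIs in 15 low and 14 in 9 high PT-Cy cells. Over all 10 innate-like genes of that list, alloBMT had 16 UMIs in 8 of the 18 low cells (313.7 CPM). The 24 high alloBMT cells had 4 UMIs in 3 cells (29.4 CPM). PT-Cy had 275.2 CPM in the low and 141.7 CPM in the high cells. Of the same list Il17a and Il23r were at 0 in alloBMT cluster 2 and were counted in the deeper PT-Cy cluster 2.

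Some differences between the libraries were present in both classes. Ccl5 had 3196.8 and 1065.5 CPM over the line (log2 ratio -1.59, -1.76 to -1.41) and 3411.1 and 1091.7 CPM under it (-1.64, -1.90 to -1.39). Pdcd1, an inhibitory receptor gene, had log2 ratios of -1.11 (-1.82 to -0.38) and -1.45 (-2.51 to -0.26). Gzma, a serine protease gene of killer cells, had 1 UMI in the 24 high alloBMT cells, 0 UMIs in the 18 low cells, and 106 and 66 UMIs in 57 high and 32 low PT-Cy cells. Gzmb had 161.7 and 566.9 CPM over the line (1.81, 1.19 to 2.50) and 196.0 and 315.4 CPM under it (0.69, -0.24 to 1.78), where the interval includes 0. Hbb-bs, which T cells lack, also differed in both classes, with log2 ratios of 2.54 and 2.52. The summed level of the 7 NK cell genes was 7.35 and 51.7 CPM over the line and 19.6 and 82.8 CPM under it. The alloBMT sums rest on 1 UMI in each class. The part of RNA from other cells in the granzyme differences was not tested.

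**Figure D5:**
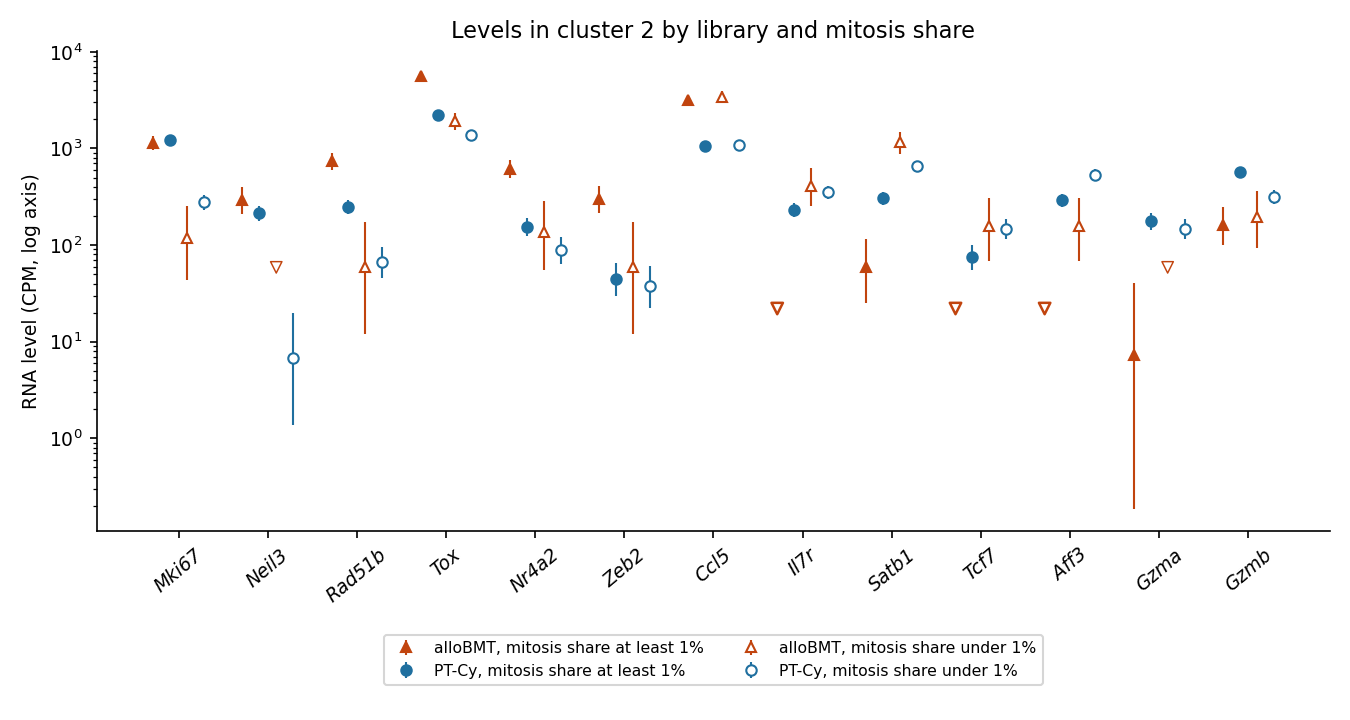
RNA level (y axis, CPM on a log scale) of 13 genes in 4 sets of cluster 2 cells: alloBMT in red triangles and PT-Cy in blue circles, filled for a mitosis share of at least 1% and open under 1%, with exact 95% Poisson intervals. Open downward triangles mark 0 UMIs, drawn at the level of 3 UMIs. Il7r, Tcf7 and Aff3 are at 0 in the alloBMT cells over the line, while Ccl5 is higher in alloBMT in both classes.

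Genes of migration are given for all cells and for each class, and the difference between the classes was not tested. Of the trafficking list 4 of 13 measured genes were 2-fold higher in PT-Cy and 0 lower over all cells of the cluster, 6 of 13 and 0 over the line, and 0 and 1 of 13 under it, with medians of 0.66, 0.86 and 0.13. Of all genes 3.79% were higher and 3.32% lower, 6.02% and 4.8% over the line, and 8.51% and 10.3% under it. Ccr2, a chemokine receptor gene, had 6 UMIs (44.1 CPM) in alloBMT and 199 UMIs (331.8 CPM) in PT-Cy over the line, a log2 ratio of 2.91 (1.76 to 4.38), and 235.2 and 288.6 CPM under it (0.29, -0.56 to 1.28). Itgb7, an integrin chain gene, had 51.4 and 271.8 CPM (2.40, 1.33 to 3.74) over the line and 313.7 and 342.3 CPM under it (0.13, -0.62 to 0.97). Of the 4 classes, the alloBMT cells over the line had the lowest level of both genes.

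Of the list of T cell receptor signalling genes 1 of 17 measured genes was 2-fold higher in PT-Cy over the line and 3 were lower, with a median of -0.16. Other genes lower in PT-Cy there, named after their values were seen, were Tigit, Cd7 and Rgs16. Tigit, an inhibitory receptor gene, had 132.3 and 43.4 CPM (log2 ratio -1.61, -2.53 to -0.66), and Cd7, a T cell surface protein gene, 418.9 and 76.7 CPM (-2.45, -3.04 to -1.86). Rgs16, a brake on G protein signalling, had 16 and 15 UMIs (-2.23, -3.35 to -1.12). Under the line the ratio of Cd7 was -0.48 (-1.64 to 0.92), and Tigit and Rgs16 did not pass the minimum. The effector and cytotoxic list was mixed, with 3 of 19 genes 2-fold higher and 8 lower over the line (median -0.64). Under the line 2 were higher and 6 lower (median 0.04). Beside the counts of both lists, 6.02% of all genes were higher and 4.8% lower over the line, and 8.51% and 10.3% under it.

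The share of cells with an Il7r UMI, after each cell was thinned to 1981 UMIs, was also lowest in the alloBMT cells over the line. An Il7r UMI was found in 0 of 24 alloBMT cells over the line, which allows a share of up to 12.5% by the limit of 3 cells of 24 (exact upper bound 14.2%). Of the PT-Cy cells over the line 31 of 107 had one (29.0%, 20.6 to 38.5). Thinning left out 3 alloBMT and 22 PT-Cy cells of the cluster, none of them alloBMT cells over the line. Under the line it was in 5 of 15 alloBMT cells and 47 of 109 PT-Cy cells (43.1%). Unthinned, the PT-Cy shares were 42.3% and 56.5%. An Hbb-bs UMI was found in 47.7% and 56.0% of the same PT-Cy cells and in 3 of 24 and 3 of 15 alloBMT cells. The part of such background RNA in the Il7r difference was not tested.

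In alloBMT, the median ratio of open chromatin at mitotic genes was close to 0, where that of RNA was not. Counts of peaks in a gene or within 2 kb were summed per gene, and 1.5-fold was the threshold. In alloBMT, 391 of 11862 genes (3.3%) were higher in the cluster and 547 (4.61%) lower. Of the mitotic kinase and spindle list 1 of 54 genes was higher and 0 lower, with a median log2 ratio of 0.14. The RNA median of 3.04 was over the fewer list genes that passed the RNA minimum. The medians thus rest on different members, and the size of the gap between them is not a measured effect. Peaks that overlap the promoter of Neil3 had 15.1 CPM of ATAC counts in the cluster and 18.6 outside it in alloBMT, and those of Mki67 had 68.9 and 53.8. The promoter peak of Ncapg2 had 105.5 and 55.5 CPM. In PT-Cy the values inside and outside the cluster were 29.1 and 15.1 CPM for Neil3, from 3 counts outside, 64.1 and 100.9 for Mki67 and 55.9 and 80.7 for Ncapg2. In PT-Cy 13.5% of 12047 genes were higher and 9.62% lower, from 198314 counts outside the cluster, and the mitotic list had 8 of 55 higher and 4 lower. These splits rest on scaling by total counts. TMM factors shift the log2 ratios by -0.31 in alloBMT, 0.46 in PT-Cy and 0.19 inside the cluster. With them 82 genes were higher and 2201 lower in alloBMT, and 5067 and 214 in PT-Cy. The factors were taken over all 148283 peaks without a minimum. The smaller sets held 464648 counts (alloBMT cluster 2) and 198314 counts (PT-Cy outside it). How far such sparse counts set the TMM shifts was not tested.

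Inside the cluster, accessibility at genes of memory and effector lists differed between the libraries in part. Of 11969 genes 841 (7.03%) were 1.5-fold higher in PT-Cy and 585 (4.89%) lower, or 1751 and 221 with TMM factors. The stem, memory and naive list had 6 of 24 genes higher and 0 lower (median 0.33), and the effector list 1 higher and 9 of 24 lower (median -0.36). At Il7r, peaks had 6 counts in the alloBMT cells and 50 in the PT-Cy cells, a log2 ratio of 1.53 (0.31 to 3.04). All 6 alloBMT counts were in the cells under the line, where the log2 ratio was -0.06 (-1.37 to 1.51), and the cells over it had 0 of 349966 counts against 24 of 822530 in PT-Cy, under the minimum of 20 CPM. At Satb1 the log2 ratio was 1.13 (0.46 to 1.86) over the line and -0.62 (-1.21 to 0.01) under it. At Tox it was -0.50 (-0.76 to -0.23) and 0.06 (-0.52 to 0.70). Over the line, RNA and peaks had the same direction at these 3 genes.

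At Gzma, with 1 and 172 UMIs in the cluster (log2 ratio 4.94, 2.44 to 10.25), peaks had 12 and 27 counts in the cluster, a log2 ratio of -0.36 (-1.39 to 0.76), and at Ccl5 22 and 45 counts (-0.50, -1.26 to 0.31). Both intervals include 0, so no difference of accessibility was detectable at these depths.

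Single peaks were sparse. Of 13668 peaks with a mean of at least 20 CPM, 248 (1.81%) were 2-fold higher in PT-Cy and 319 (2.33%) lower, or 538 and 160 with TMM factors. The peak with the highest lower bound, chr1:39922622-39923764, overlaps Map4k4, a kinase gene, and had 3 and 58 counts (log2 ratio 2.74, 1.13 to 5.06), with 2.90 over the line and 2.35 under it. The peak with the lowest upper bound, chr19:30112905-30114244, overlaps Gldc, a glycine cleavage enzyme gene, with 22 and 12 counts (-2.40, -3.55 to -1.33), and -2.31 over the line and -2.18 under it. A peak in Jdp2, an AP-1 family repressor gene, at chr12:85629281-85630292 had 31 and 22 counts (-2.02), with -2.09 over the line and -0.59 under it. A peak in Ptpn22, a phosphatase gene of T cell receptor signalling, at chr3:103907295-103908128 had 17 and 10 counts (-2.29), with -2.65 and -0.18. The class values of these peaks have no interval and rest on parts of the few counts given. The alloBMT cells under the line held 114682 ATAC counts over all peaks. The class values therefore cannot show whether a peak differs in both classes or in a single class.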

How the data were processed

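RNA and ATAC were measured in the same cells of 4 deposited libraries (1 of each kind per group). The authors deposited raw counts of UMIs per gene and cell (32285 genes) and raw counts per peak and cell (148283 peaks). Their per-cell table, as deposited by the authors, holds counts per cell, the fraction of fragments in peaks and the joint graph weights as a fraction, the mitochondrial percent, TSS enrichment and nucleosome signal as a ratio, module and map values as a score, and the cluster number. Per the submitters' processing notes, Cell Ranger ARC 1.0.1 and MACS2 were used, and the build listed is GRCh38. The deposited gene names are mouse, and 51.5% of 32851 mouse GRCm38.p6 promoters overlap a peak, against 9.03% when shifted by 100000 bases, so GRCm38.p6 coordinates were used. The sources used here do not give doublet removal or the strand setting, and no doublet caller was run. Of the 58 per-cell columns, 27 were not used.

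Counts were summed over the cells of a set and divided by the set's total. A log2 ratio has an exact binomial (Clopper-Pearson) 95% interval and a level an exact Poisson 95% interval, both for counting error only. A set at 0 was given a floor of 3 counts. Genes needed a mean of 50 CPM (counts scaled by the set's total) and a 2-fold ratio for RNA, 20 CPM and 1.5-fold for accessibility (peaks in the gene or within 2 kb, 17684 genes), and peaks 20 CPM and 2-fold. The mean is over both sets, so a gene can pass through a single set. Counts and medians of lists are partly set by this. The 27 lists held 526 genes, 525 of them in the RNA table. The S phase share used 61 genes and the mitosis share 111. Thinning kept 1981 UMIs per cell. Named genes were, per RNA comparison, the 15 with the highest lower and the 15 with the lowest upper bound, up to 4 of each list and a fixed set. Genes named for the classes of mitosis share, and the 1% line, were chosen after their values were seen, and the members and lists were chosen with earlier results of these data known. Python 3.11.15 with numpy 2.4.6, scipy 1.17.1 and pandas 2.3.3 was used. Scale factors for alternatives came from edgeR 4.0.16 (TMM) and DESeq2 1.42.0 in R 4.3.3, and the ratios were tested on simulated data. Motif letters come from RefSeq promoters.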

Additional observations from a re-analysis of the deposited data

Results flagged for a closer look

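Of 3644 genes that passed the minimum in both libraries, 3 were at least 2-fold apart in opposite directions when cluster 2 was set against the other CD4 cells. Slc2a9, a urate transporter gene, had a log2 ratio of 1.23 in alloBMT and -1.27 in PT-Cy. Srgap3 had -1.16 in alloBMT and 1.19 in PT-Cy. Lztfl1, a gene of ciliary protein transport, had 1.03 in alloBMT and -1.52 in PT-Cy. The difference between the libraries was not tested for these genes, since each library is 1 sample, and in PT-Cy the cells outside the cluster are 46, mostly of cluster 4.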

How the results depend on the processing

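No paired analysis was possible because each group is 1 library of each assay, which gives fewer than 2 pairs. Of the values of single genes under the alternatives, 1225 stayed inside their counting interval and 75 left it. A further 6, whose main ratio had reached the fold threshold, changed sign. Sign changes of smaller ratios were not counted apart. Of counts and shares, 79 stayed within their margin and 83 did not, so the counts of genes and peaks describe a threshold more than a size of effect. In the following, counts are given as higher and lower.

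With a mean of at least 20 CPM the RNA counts were 495 and 316 in alloBMT, 382 and 293 in PT-Cy, and 569 and 374 inside the cluster. With 100 CPM they were 94 and 19, 24 and 37, and 57 and 56, and with 200 CPM 32 and 5, 4 and 15, and 17 and 26. With each cell thinned they were 349 and 200, 245 and 249, and 269 and 296. Thinned, the cells with at least 1% mitosis share gave 413 and 483, and those under 1% gave 566 higher. Without cells that hold a Cd8b1 UMI there were 129 lower in alloBMT, 158 higher in PT-Cy, and 234 and 221 inside. With the deepest 5% of cells taken out 123 were lower in alloBMT, and without cluster 4 PT-Cy had 235 and 221. Inside the cluster, cells of at least 1% gave 246 higher, and cells under 1% gave 344 and 418.

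For accessibility at genes, TMM factors gave 82 and 2201 in alloBMT, 5067 and 214 in PT-Cy, and 1751 and 221 inside. A minimum of 50 CPM gave 128 and 141, 625 and 529, and 246 and 249. Inside, cells of at least 1% gave 943 lower and cells under 1% gave 2183 and 2036. For peaks, TMM factors gave 18 and 630, 2627 and 201, and 538 and 160, and a minimum of 50 gave 1 and 1, 61 and 69, and 5 and 13. Binary peak counts gave 95 lower in alloBMT and 159 higher inside. Without the 5% of cells with the most ATAC counts there were 288 and 372 in alloBMT and 445 and 488 inside. Inside, cells of at least 1% gave 466 and 617 and cells under 1% gave 1114 and 1817. On RNA, TMM shifted the log2 ratios by -0.10 in alloBMT.

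With only the bases before the start, E2F motifs were in 5.26% of DNA synthesis promoters, CHR elements in 18.2% of kinetochore and 40.8% of mitotic promoters, and CHR with CCAAT in 15.2% and 32.7%. Over all promoters the shares were 1.30% for E2F, 15.99% for CHR, 33.8% for CCAAT and 5.55% for CHR with CCAAT.

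Sign changes are listed for ratios that had reached the fold threshold. The sign changed for Cd8b1 RNA in PT-Cy, from 1.17 to -0.10 without cluster 4, and for Cd8b1 accessibility, from -0.76 to 0.15 with peaks within 10 kb. Under 1% mitosis share it changed inside the cluster for Tcf7 RNA (1.31 to -0.087), Il7r RNA (1.34 to -0.22), Il7r accessibility (1.53 to -0.060) and Gzmk accessibility (-0.59 to 0.20). The split at 1% and the thinning of its classes were chosen after seeing the data, and fewer cells enter each class. Beyond the alternatives built on fewer cells or genes, the cause was not tested. The sums of the 42 alloBMT cells of the cluster (187084 UMIs), of its 18 cells under the line (51010 UMIs) and of the 46 other PT-Cy cells (198314 ATAC counts) limit the precision of the values that rest on them.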
